A study of Arabidopsis thaliana with 96 samples.

Results

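The type-A response regulators are the members of the Arabidopsis response regulator family (ARR) that damp the signal of the plant hormone cytokinin. The 10 loci ARR3 to ARR9, ARR15, ARR16 and ARR17 were taken by locus name from a table of 32833 loci. Of these 10, 8 had enough counts to be tested among 19498 tested loci. Plants of Arabidopsis thaliana Col-0, an accession in wide laboratory use, were grown in clay watered with diluted Hoagland's nutrient solution, under 8 h of light and 16 h of darkness. The 12 groups crossed 3 light levels (low, mid and high, at 100, 250 and 500 µmol of photons per m2 and s) with nitrate at 2, 5, 10 or 20 mM. Every group held 8 single plants of the same wild-type line, and 2 discs of leaf per plant went into 1 RNA library 30 days after transplanting. The 96 libraries held 9461056 to 18125373 counts each (median 12489936). The replicates were separate plants. The libraries also fall into 4 sets of consecutive codes, so the p-values rest on the spread between plants and on any difference between these sets, except where a fit with a term for the sets is named, and the first set stood apart in the levels of several members, which is described after the main comparisons together with the values without it.

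Cytokinin is sensed by membrane histidine kinases (AHK), which pass a phosphate through shuttle proteins (AHP) to the response regulators of the nucleus. Type-B ARR proteins then bind DNA and switch genes on, the type-A genes among them, and the type-A proteins, which carry a receiver domain but no DNA-binding output domain, feed back negatively on the pathway. In leaves the hormone is known for keeping cells dividing and for delaying senescence, and nitrate supply is known to raise its synthesis. Transcript levels of type-A genes are for this reason often used as a readout of cytokinin signalling, although each of them also has inputs of its own.

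Promoter sequences are shown for 4 members that carry the contrasts described below: ARR9 and ARR16, which moved in opposite directions with both factors, and ARR6 and ARR7, whose levels tracked each other most closely from plant to plant. Each line is the 250 bases before the annotated gene start, written 5′ to 3′ on the strand of the gene, from RefSeq assembly TAIR10.1. Capitals mark AGATT and AGATC on either strand (AATCT and GATCT on the strand shown), the core letters that type-B ARR proteins are known to bind in vitro. Overlapping matches were counted separately. The windows lie at chr3:21108809-21109058 on the plus strand for ARR9, chr2:16969423-16969672 on the plus strand for ARR16, chr5:25254319-25254568 on the minus strand for ARR6 and chr1:6579315-6579564 on the minus strand for ARR7.
ARR9: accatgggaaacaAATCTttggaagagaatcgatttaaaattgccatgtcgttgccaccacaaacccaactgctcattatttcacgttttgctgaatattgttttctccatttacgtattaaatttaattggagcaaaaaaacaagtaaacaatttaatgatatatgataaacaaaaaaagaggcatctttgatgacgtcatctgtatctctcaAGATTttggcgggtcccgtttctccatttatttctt
ARR16: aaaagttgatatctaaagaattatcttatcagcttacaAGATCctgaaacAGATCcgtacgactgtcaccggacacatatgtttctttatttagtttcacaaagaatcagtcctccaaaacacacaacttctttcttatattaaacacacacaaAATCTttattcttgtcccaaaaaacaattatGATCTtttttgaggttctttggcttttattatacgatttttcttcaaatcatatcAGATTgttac
ARR6: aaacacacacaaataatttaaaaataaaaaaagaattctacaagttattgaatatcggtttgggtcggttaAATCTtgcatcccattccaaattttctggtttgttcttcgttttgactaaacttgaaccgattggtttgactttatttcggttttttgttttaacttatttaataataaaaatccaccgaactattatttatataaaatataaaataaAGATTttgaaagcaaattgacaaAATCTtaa
ARR7: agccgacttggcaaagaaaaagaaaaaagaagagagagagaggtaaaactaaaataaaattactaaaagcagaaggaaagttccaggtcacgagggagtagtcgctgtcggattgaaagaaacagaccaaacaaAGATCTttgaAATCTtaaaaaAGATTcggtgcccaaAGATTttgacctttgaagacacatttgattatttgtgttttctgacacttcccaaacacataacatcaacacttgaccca
The ARR16 and ARR7 windows held 5 matches each, a number reached or passed by 2.52% of the 27443 promoter windows of this length. The ARR6 window held 3 matches, reached by 18.3% of windows, and the ARR9 window held 2, reached by 40.8%. ARR5 also had 2 matches, and ARR3, ARR4, ARR8, ARR15 and ARR17 had 1 each, which 73.2% of all windows had at least. These matches describe the letters of the windows.

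Levels of the members are given in CPM, the counts of a gene relative to the total of its library, scaled between libraries by the trimmed mean of M values (TMM). Set against the length of the exons, so that genes can be compared, ARR4 was the most abundant member at a mean of 68 CPM per kilobase over the 96 libraries. ARR4 is a regulator known to bind phytochrome B and to act on the period of the clock. ARR7 averaged 28.8, ARR8 27.4, ARR9 16.1 and ARR6 13.2 CPM per kilobase. ARR5, ARR16 and ARR15 followed at 6.98, 5.01 and 4.45 CPM per kilobase. ARR3, known as a close relative of ARR4, and ARR17, known as one of ARR16, were hardly detected. ARR3 had 4 counts in all, in 4 of 96 libraries, and ARR17 had 34 counts in 24 libraries with at most 5 in any of them. A library without a count still allows a level of up to 0.166 to 0.317 CPM, depending on its depth, so no comparison of ARR3 or ARR17 between conditions was made. In leaf discs a change in the number of cells of a type and a change in the RNA per cell cannot be told apart.

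The genes lie on 4 of the nuclear chromosomes of TAIR10.1. ARR3 (AT1G59940) is at chr1:22065617-22067233, ARR4 (AT1G10470) at chr1:3441988-3444360, ARR7 (AT1G19050) at chr1:6577833-6579314 and ARR15 (AT1G74890) at chr1:28131447-28133025, and these 4 are on the minus strand. ARR5 (AT3G48100) at chr3:17758427-17760950 and ARR6 (AT5G62920) at chr5:25252007-25254318 are on the minus strand as well. ARR8 (AT2G41310) at chr2:17221840-17224880, ARR16 (AT2G40670) at chr2:16969673-16972113, ARR9 (AT3G57040) at chr3:21109059-21111567 and ARR17 (AT3G56380) at chr3:20905264-20906397 are on the plus strand. ARR6, ARR8 and ARR9 each overlap 1 gene on the opposite strand, and since no source used here gives the strand setting of the counting, reads of the overlap could not be told apart. The partner of ARR6, the protein-coding AT5G62910, had 24390 counts against 22916 for ARR6. The long non-coding partner of ARR8, AT2G09250, had 1670 counts against 81836 for ARR8. The long non-coding partner of ARR9, AT3G08825, had 2 counts against 36078 for ARR9.

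High light was first set against low light over all 4 nitrate doses. Of the 8 tested members, 5 were lower in high light (ARR5, ARR6, ARR8, ARR9 and ARR15) and 1 was higher (ARR16), each at an adjusted p under 0.05 in edgeR. The background was broad: 62.5% of all tested genes were called in this comparison, 28.7% lower and 33.8% higher. The median log2 change was -0.80 over the 8 members and 0.04 over all tested genes.

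**Figure D1:**
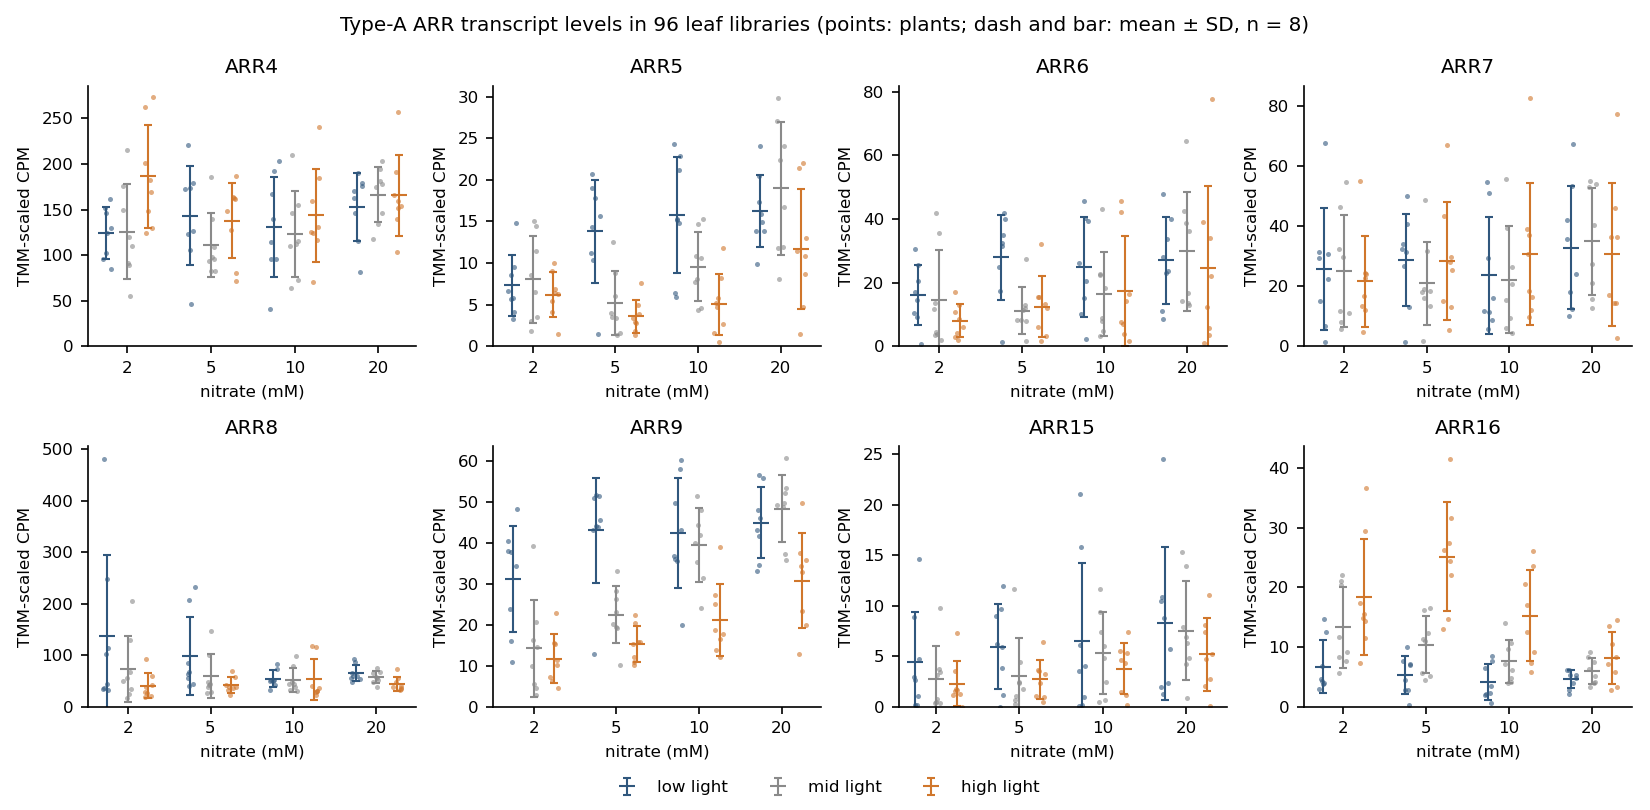
TMM-scaled CPM (linear axis from 0) of the 8 tested members against nitrate dose in mM, with low, mid and high light side by side. Points are single plants, dashes and bars are the mean and SD of 8 plants. ARR16 reaches its highest mean, 25.1 CPM, in high light at 5 mM, where ARR5 has its lowest, 3.62 CPM.

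ARR16, which acts in the stomatal lineage among other tissues, was the member that rose in high light. Its lowest, median and highest levels were 2.75, 14.6 and 41.5 CPM in the 32 high-light libraries, against 0.364, 4.49 and 14.7 CPM in the 32 low-light libraries. The median high-light plant thus stood close to the highest low-light plant, although the groups overlapped. The log2 change was 1.60 ± 0.20 (SE, n = 32 against 32; edgeR adjusted p = 1.06e-10), or 3.04-fold higher. The rise was stepwise, with a log2 change of 0.80 ± 0.20 for mid against low light (adjusted p = 0.00231) and of 0.81 ± 0.20 for high against mid light (adjusted p = 8.31e-04).

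ARR9, a regulator with a known daily rhythm, fell in high light. Its lowest, median and highest levels were 4.65, 16.1 and 49.7 CPM in high light, against 11.02, 43.1 and 60.2 CPM in low light. The medians were far apart and the ranges overlapped. The log2 change was -1.11 ± 0.15 (adjusted p = 1.23e-09), with -0.52 ± 0.15 for mid against low light (adjusted p = 0.00858) and -0.60 ± 0.15 for high against mid light (adjusted p = 0.00116). ARR9 and ARR16 were the members called at each of the single light steps, and ARR5 was called at the upper step only. For mid against low light, 2 of 8 members were called beside 19.8% of all genes, and for high against mid light 3 of 8 beside 38.7%. With a term for the code sets in the edgeR fit, 4 members were called at the lower step, with ARR5 (-0.51, adjusted p = 0.0450) and ARR8 (-0.45, adjusted p = 0.00238) added. At the upper step 5 were called, with ARR4 (0.28, adjusted p = 0.0159) and ARR8 (-0.36, adjusted p = 0.00983) added. Here and below, the shares of all genes beside the light and nitrate comparisons come from the fit without this term. Members called with the term therefore have no such share beside them.

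ARR5, the member most used as a reporter of cytokinin, fell as well. Its lowest, median and highest levels were 0.476, 5.34 and 21.99 CPM in high light, against 1.45, 14.6 and 24.3 CPM in low light. Most high-light plants lay under the low-light median, and the ranges overlapped nearly throughout. The log2 change was -1.07 ± 0.22 (adjusted p = 1.53e-05), and the upper light step alone gave -0.62 ± 0.22 (adjusted p = 0.0172). ARR8, a regulator that responds to cytokinin more weakly than ARR5, had 19.8, 37.8 and 119 CPM in high light, against 31.7, 57.6 and 481 CPM in low light. Its plants overlapped, and the low-light values spread over a far wider range than the high-light values. Its log2 change was -0.89 ± 0.21 (adjusted p = 1.64e-04).

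ARR6, a close relative of ARR5, and ARR15, a close relative of ARR7 with a role in the shoot meristem, fell with larger errors. ARR6 had lowest, median and highest levels of 1.12, 11.3 and 77.9 CPM in high light, against 0.782, 24.3 and 48.03 CPM in low light, and a log2 change of -0.71 ± 0.31 (adjusted p = 0.0398). ARR15 had 0, 2.95 and 11.05 CPM in high light, against 0, 4.40 and 24.5 CPM in low light, and a log2 change of -0.89 ± 0.39 (adjusted p = 0.0396). For both, the ranges overlapped throughout, and the highest ARR6 level of all 96 libraries was in high light. These calls stood close to the threshold: that of ARR6 was lost when any 1 of 19 single libraries was left out (adjusted p up to 0.0590), and that of ARR15 for any 1 of 14 (up to 0.0877). Of 19 alternatives over the whole design, 9 ended the call of ARR6 (adjusted p up to 0.297, without code set 2) and 11 that of ARR15, among them limma-voom on all libraries with a log2 change of -0.38 (adjusted p = 0.515). Leaving out 1 library ended no other call of this comparison.

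ARR4 and ARR7 did not pass the test for light. ARR4 had 70.6, 157 and 274 CPM in high light, against 40.5, 143 and 221 CPM in low light, with a log2 change of 0.19 ± 0.12 (adjusted p = 0.158) and an interval of plus or minus 2 SE from -0.05 to 0.44. With library totals in place of TMM, which moved the median of all tested genes by 0.23, the change of ARR4 was 0.41 (adjusted p = 0.00354). ARR7, a regulator known as a target of WUSCHEL in the shoot meristem, had 2.65, 23.3 and 82.6 CPM in high light, against 1.38, 28 and 67.6 CPM in low light. Its log2 change was 0.00 ± 0.28 (adjusted p = 0.988), with an interval from -0.55 to 0.56.

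**Figure D2:**
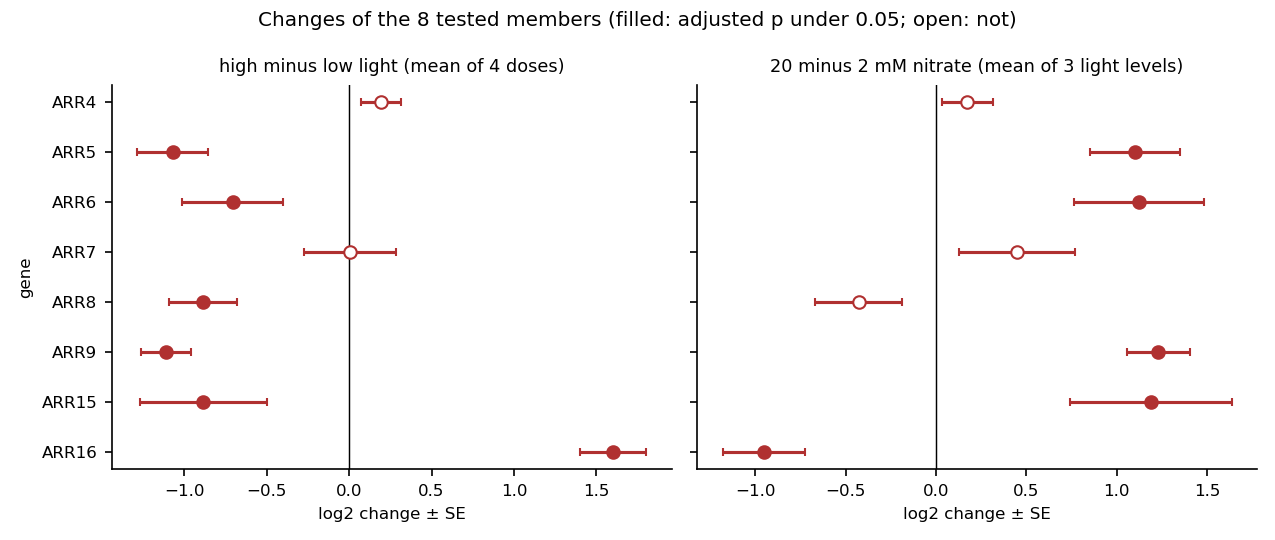
Log2 change with its SE for the 8 tested members, for high minus low light (left) and 20 minus 2 mM nitrate (right). Filled points passed an adjusted p of 0.05. ARR5, ARR6, ARR9 and ARR15 lie left of 0 for light and right of 0 for nitrate, and ARR16 lies on the other side in each panel.

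Nitrate at 20 mM was then set against 2 mM over the 3 light levels. At 20 mM, 4 of the 8 tested members were higher (ARR5, ARR6, ARR9 and ARR15) and 1 was lower (ARR16), beside 63.3% of all tested genes called, 28.7% higher and 34.6% lower. The median log2 change was 0.78 over the members and -0.06 over all tested genes. This comparison and that of light share the 32 libraries of high and low light at 20 and 2 mM.

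ARR9 rose with nitrate. Its lowest, median and highest levels were 12.8, 42.4 and 60.6 CPM in the 24 libraries at 20 mM, against 2.92, 15.3 and 48.3 CPM in the 24 at 2 mM. The lowest plants at 20 mM were inside the range at 2 mM, and the median at 20 mM was close to the highest plant at 2 mM. The log2 change was 1.23 ± 0.17 (adjusted p = 8.24e-09). ARR5 had 1.43, 14.4 and 29.8 CPM at 20 mM, against 1.44, 6.49 and 15.1 CPM at 2 mM, with a log2 change of 1.10 ± 0.25 (adjusted p = 8.98e-05). The median ARR5 level at 20 mM thus lay near the highest plant at 2 mM, while the lowest plants were alike.

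ARR6 had 1.12, 23.3 and 77.9 CPM at 20 mM, against 0.782, 10.6 and 42.01 CPM at 2 mM. The log2 change of ARR6 was 1.12 ± 0.36 (adjusted p = 0.00486). The groups overlapped throughout, with the higher plants at 20 mM. ARR15 had 0.102, 6.01 and 24.5 CPM at 20 mM, against 0, 1.73 and 14.6 CPM at 2 mM, and its log2 change was 1.19 ± 0.45 (adjusted p = 0.0171). Its ranges also overlapped, and its SE was the largest of the 8 members. The nitrate call of ARR6 was lost without code set 3 (0.83, adjusted p = 0.118), and that of ARR15 in 4 of 19 alternatives (adjusted p up to 0.167).

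ARR16 fell with nitrate. It had 2.19, 5.50 and 14.4 CPM at 20 mM, against 3.03, 11.6 and 36.6 CPM at 2 mM, and a log2 change of -0.95 ± 0.23 (adjusted p = 2.24e-04). The plants at 20 mM lay in the lower part of the range at 2 mM or just below it. ARR4, ARR7 and ARR8 did not pass. Their log2 changes were 0.17 ± 0.14 (adjusted p = 0.277, interval -0.11 to 0.46) for ARR4, 0.45 ± 0.32 (adjusted p = 0.217, interval -0.19 to 1.09) for ARR7 and -0.43 ± 0.24 (adjusted p = 0.109, interval -0.91 to 0.05) for ARR8.

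No single nitrate step called a member in edgeR without a term for the code sets, and each step called 1 member with it. For 5 against 2 mM, 0 of 8 passed beside 7.54% of all genes (1 at an unadjusted p under 0.05, and 1 each in DESeq2 and limma-voom). For 10 against 5 mM, 0 passed beside 14% (3 unadjusted), and for 20 against 10 mM, 0 passed beside 1.10% (2 unadjusted), with 0 in DESeq2 and limma-voom for both. The largest single step of a member with an unadjusted p under 0.05 was that of ARR5 for 20 against 10 mM, at 0.75 ± 0.25 (adjusted p = 0.0918). ARR9 gave 0.50 ± 0.17 for 5 against 2 mM (adjusted p = 0.0542), 0.42 ± 0.17 for 10 against 5 mM (adjusted p = 0.0795) and 0.30 ± 0.17 for 20 against 10 mM (adjusted p = 0.362). With the term for the code sets, the called members were ARR9 for 5 against 2 mM (0.52, adjusted p = 0.0284), ARR16 for 10 against 5 mM (-0.57, adjusted p = 0.0238) and ARR5 for 20 against 10 mM (0.78, adjusted p = 0.0308). The shares of all genes given for these steps are without that term.

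Cell type markers and the scaling moved along with both factors. The summed level of 5 mesophyll genes had lowest, median and highest values of 9288, 16069 and 55265 CPM in high light, against 7338, 42678 and 55738 CPM in low light. At 20 mM it was 26329, 46590 and 52624 CPM, against 6238, 15280 and 46737 CPM at 2 mM. The 5 dividing-cell genes summed to 1.46, 5.87 and 20.4 CPM in high light, against 4.14, 11.4 and 21.4 CPM in low light, and to 4.35, 12.4 and 24.7 CPM at 20 mM, against 0.879, 4.73 and 13.6 CPM at 2 mM. All 5 mesophyll and all 5 dividing-cell genes fell in high light and rose at 20 mM, the direction of ARR5, ARR6, ARR9 and ARR15. Of the 4 epidermis genes, 4 fell in high light and 3 rose at 20 mM, and of the 5 vascular genes 3 fell and 1 rose in high light, and 3 rose and 1 fell at 20 mM. Of the 4 guard-cell and myrosin-cell genes, 1 fell in high light and 1 rose at 20 mM. Among all tested genes, 28.7% fell and 33.8% rose in high light, and 28.7% rose and 34.6% fell at 20 mM. These levels do not tell a change in the number of cells from a change of the marker RNA per cell. The part of these cell types in the changes of the type-A genes was not tested. The meristem genes WUS and CLV3 had 0 counts in all 96 libraries, which allows up to 0.00242 CPM over all of them, and STM had 4 counts. The root-hair genes EXPA7 and COBL9 had 0 and 19 counts.

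The mean log2 TMM factor was 0.12 in high and -0.11 in low light, and -0.14 at 20 mM and 0.16 at 2 mM. With library totals only, the median of all tested genes shifted by 0.23 for light and by -0.31 for nitrate. The split of all called genes changed from 6596 higher and 5596 lower to 10828 higher and 3105 lower for light, and from 5597 higher and 6746 lower to 3078 higher and 11267 lower for nitrate. None of the 6 light and 5 nitrate changes called with TMM changed sign with library totals, but ARR6 (-0.48, adjusted p = 0.149) and ARR15 (-0.66, adjusted p = 0.111) were not called for light, and ARR8 was called lower for nitrate (-0.78, adjusted p = 0.00450).

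Whether the effect of one factor differs with the other was tested with all 6 interaction terms. None of the 8 members passed the F test in edgeR, beside 12.7% of all genes (2 members at an unadjusted p under 0.05, and 0 in DESeq2 and limma-voom). None passed for the change from nitrate in high against low light, beside 6.03% of all genes (2 unadjusted, and again 0 by the other tools). With a term for the code sets, ARR8 passed (0.99, adjusted p = 0.0385). For ARR9 this difference was 0.87 ± 0.42 on the log2 scale (adjusted p = 0.209) and for ARR8 1.19 ± 0.59 (adjusted p = 0.220). The call of ARR8 came in 1 of 19 alternatives over the whole design, and the other 18 gave none. The fit with the term takes each set to shift all groups alike, whereas the nitrate change of ARR8 differed between the sets, as described below. The effects within single doses and light levels below are thus not shown to differ from each other.

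At 2 mM nitrate, high against low light called 4 of 8 members beside 42.9% of genes. ARR16 and ARR4 were higher by 1.45 ± 0.40 and 0.58 ± 0.24 on the log2 scale (adjusted p = 0.00253 and 0.0460), and ARR8 and ARR9 were lower with -1.74 ± 0.42 and -1.42 ± 0.30 (adjusted p = 7.87e-04 and 1.53e-04). At 5 mM, 4 members passed beside 44% of genes. ARR16 had its highest and clearest contrast there, with lowest, median and highest levels of 12.98, 25.4 and 41.5 CPM in the 8 high-light plants, against 0.364, 5.73 and 10.0 CPM in the 8 low-light plants. These plants did not overlap, and the log2 change was 2.25 ± 0.41 (adjusted p = 6.01e-06).

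ARR5 at 5 mM showed the reverse, with 1.35, 3.17 and 7.63 CPM in high light, against 1.45, 15.03 and 20.7 CPM in low light, and a log2 change of -1.93 ± 0.44 (adjusted p = 2.63e-04). Its groups overlapped through 1 low-light plant, replicate 1, at 1.45 CPM, while the other 7 had at least 10.4 CPM. ARR9 had 10.08, 15.5 and 22.4 CPM in high light, against 12.9, 44.9 and 51.8 CPM in low light, with a log2 change of -1.49 ± 0.30 (adjusted p = 4.61e-05). The same low-light plant had the 12.9 CPM, and the other 7 had at least 43.1 CPM. ARR8 fell as well, by 1.24 ± 0.42 on the log2 scale (adjusted p = 0.0126).

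At 10 mM, 3 members passed beside 23.6% of genes: ARR16 was higher with 1.88 ± 0.40, and ARR5 and ARR9 were lower with -1.64 ± 0.44 and -0.998 ± 0.30 (adjusted p = 3.44e-04, 0.00385 and 0.0105). At 20 mM none passed in edgeR beside 3.78% of genes, with 1 at an unadjusted p under 0.05 and 0 in DESeq2 and limma-voom. ARR16 at 20 mM had 2.75, 7.71 and 14.4 CPM in high light, against 2.19, 5.06 and 6.22 CPM in low light, with a log2 change of 0.84 ± 0.40 (adjusted p = 0.229). The low-light plants lay in the lower part of the high-light range or just below it.

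Within low light, 20 against 2 mM called none of the members in edgeR beside 8.69% of genes (2 at an unadjusted p under 0.05, 1 in DESeq2 and 0 in limma-voom). The largest log2 changes there were 1.16 ± 0.43 for ARR5 (adjusted p = 0.0726) and -1.07 ± 0.42 for ARR8 (adjusted p = 0.0883), and ARR5 passed with a term for the code sets (1.17, adjusted p = 0.0340). Within mid light, 3 members passed beside 45.8% of genes. ARR9 had 35.8, 49.4 and 60.6 CPM at 20 mM, against 2.92, 12.2 and 39.3 CPM at 2 mM, and a log2 change of 1.76 ± 0.31 (adjusted p = 5.71e-06). The plants overlapped only at the top of the 2 mM range. ARR5 rose by 1.24 ± 0.43 and ARR16 fell with -1.15 ± 0.40 (adjusted p = 0.0145 and 0.0140). With a term for the code sets 6 members passed in mid light, with ARR4 (0.49, adjusted p = 0.0334), ARR6 (1.41, adjusted p = 0.00924) and ARR15 (1.68, adjusted p = 0.00887) added. The 8.69% and 45.8% are shares without that term. Within high light, 3 members passed beside 50.8% of genes: ARR9 rose by 1.40 ± 0.30, ARR6 rose by 1.59 ± 0.63 and ARR16 fell with -1.16 ± 0.39 (adjusted p = 1.25e-04, 0.0289 and 0.0110).

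Across the 12 groups, ARR16 had the widest span of means, 6.07-fold between high light at 5 mM and low light at 10 mM. Its mean ± SD (n = 8) in low light was 6.70 ± 4.45, 5.28 ± 3.21, 4.13 ± 2.97 and 4.58 ± 1.505 CPM at 2, 5, 10 and 20 mM. In mid light it was 13.3 ± 6.78, 10.3 ± 4.77, 7.57 ± 3.601 and 5.97 ± 2.18 CPM at the same doses. In high light it was 18.4 ± 9.72, 25.1 ± 9.13, 15.3 ± 7.68 and 8.20 ± 4.37 CPM. The 4 high-light means thus spanned a wider range than the 4 low-light means.

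ARR9 spanned 4.14-fold. In low light it averaged 31.2 ± 12.9, 42.99 ± 12.7, 42.4 ± 13.3 and 44.9 ± 8.66 CPM at 2, 5, 10 and 20 mM. In mid light it averaged 14.2 ± 11.9, 22.4 ± 6.90, 39.5 ± 9.01 and 48.3 ± 8.22 CPM. In high light it averaged 11.7 ± 6.00, 15.3 ± 4.38, 21.2 ± 8.78 and 30.8 ± 11.6 CPM. The low-light means were alike from 5 mM on, whereas the mid-light and high-light means were higher at each successive dose.

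ARR5 ran from 3.62 ± 1.98 CPM in high light at 5 mM to 18.99 ± 7.96 CPM in mid light at 20 mM, ARR6 from 8.13 ± 5.23 CPM in high light at 2 mM to 29.9 ± 18.7 CPM in mid light at 20 mM, and ARR15 from 2.27 ± 2.23 CPM in high light at 2 mM to 8.24 ± 7.60 CPM in low light at 20 mM. ARR8 ran from 41.02 ± 24.6 CPM in high light to 137 ± 157 CPM in low light, both at 2 mM, and its largest SD was wider than the mean. The narrowest spans belonged to ARR4, between 111 ± 35.3 CPM (mid light, 5 mM) and 187 ± 56.6 CPM (high light, 2 mM), and to ARR7, between 21.0 ± 13.9 CPM (mid light, 5 mM) and 34.9 ± 17.9 CPM (mid light, 20 mM). When the 12 means of a member were put in order, none of the 11 steps between neighbours exceeded the larger of the 2 SDs, for any of the 8 members.

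The library codes run through 4 consecutive sets of 24, each with 2 plants of every group. No label says whether a set was handled as a batch. Levels differed between the sets for 7 of 8 members when the groups were accounted for, beside 71.3% of all genes, with ARR9 the exception (adjusted p = 0.271). ARR8 averaged 125 ± 95.6 CPM in set 1, against 49.6 ± 20.6, 34.02 ± 11.1 and 50.7 ± 14.5 CPM in sets 2, 3 and 4 (SD, n = 24 each; adjusted p = 6.46e-19). ARR7 averaged 10.05, 22.4, 28 and 47.98 CPM in sets 1 to 4, ARR6 averaged 6.65, 16.7, 21.6 and 32.03 CPM, and ARR15 averaged 0.918, 4.39, 4.96 and 8.94 CPM. ARR8 was thus highest in the set where ARR6, ARR7 and ARR15 were lowest. Set 1 also held 1313 of the 1670 counts of AT2G09250, the gene opposite ARR8, with 220, 57 and 80 counts in sets 2, 3 and 4. AT5G62910, the gene opposite ARR6, had 5438, 5375, 6185 and 7392 counts in sets 1 to 4. ARR6 itself had 2154, 4871, 6442 and 9449. Without set 1, all 6 light and all 5 nitrate calls of the members kept their sign and passed the test. The log2 changes for light without set 1 were -1.11 for ARR5, -0.79 for ARR6, -0.71 for ARR8, -1.32 for ARR9, -0.98 for ARR15 and 1.59 for ARR16. For nitrate they were 1.10 for ARR5, 1.18 for ARR6, 1.41 for ARR9, 1.17 for ARR15 and -1.01 for ARR16, and ARR8 had 0.32 (adjusted p = 0.0533), with a sign opposite to that over all libraries.

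**Figure D3:**
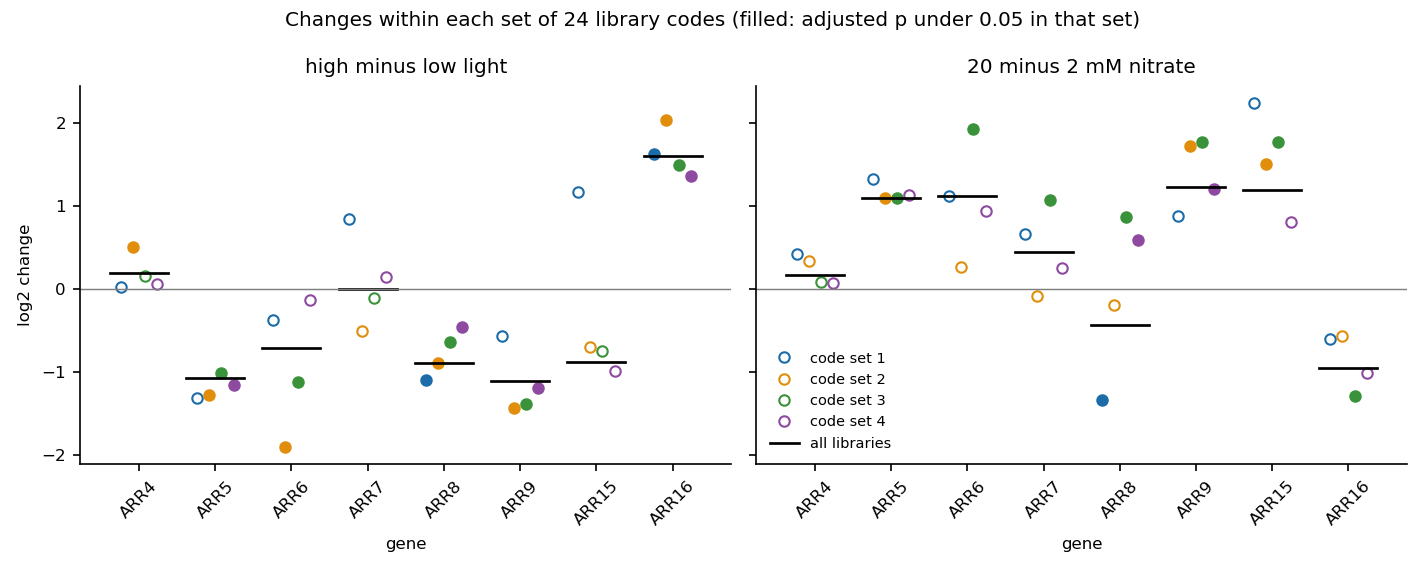
Log2 change of each member within each set of 24 library codes (points, filled where the adjusted p in that set is under 0.05) and over all libraries (line), for light (left) and nitrate (right). ARR16 is above 0 for light in every set, and the nitrate change of ARR8 lies between -1.34 in set 1 and 0.87 in set 3.

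Within the single sets, ARR16 was higher in high light in all 4, with log2 changes of 1.63, 2.03, 1.49 and 1.37 and an adjusted p under 0.05 in each. ARR5 changed by -1.31, -1.28, -1.01 and -1.16, ARR8 by -1.09, -0.90, -0.63 and -0.46 and ARR9 by -0.56, -1.43, -1.39 and -1.20 in sets 1 to 4, with ARR5 and ARR9 short of the threshold in set 1. ARR6 had -0.38, -1.90, -1.12 and -0.14, called in sets 2 and 3. ARR15 had 1.17 in set 1 and -0.70, -0.75 and -0.99 in the others, with no call. For nitrate, ARR5 gave 1.09 to 1.33, ARR9 0.88 to 1.77, ARR6 0.27 to 1.93, ARR15 0.81 to 2.24 and ARR16 -1.29 to -0.57, so that each kept its sign in all 4 sets. The calls were fewer: ARR9 passed in sets 2, 3 and 4, ARR5 and ARR15 in sets 2 and 3, and ARR6 and ARR16 in set 3 only. The share of all genes called within a set ran from 22.3% to 54.7% for light and from 17.4% to 43.4% for nitrate.

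The nitrate change of ARR8 depended on the set. In set 1 its lowest, median and highest levels were 32.5, 70.6 and 92.9 CPM at 20 mM, against 60.3, 167 and 481 CPM at 2 mM (6 libraries each). In set 3 they were 34.5, 45.1 and 59.8 CPM at 20 mM, against 16.7, 23.0 and 36.1 CPM at 2 mM. The 20 mM plants thus lay mostly below the 2 mM plants in set 1 and almost wholly above them in set 3. The log2 changes in sets 1 to 4 were -1.34, -0.19, 0.87 and 0.59 (adjusted p = 3.56e-04, 0.224, 4.40e-04 and 0.0309). A test of this difference, chosen after these values were seen, used an edgeR fit with a mean for every group in every set. It gave F = 41.6 for ARR8 (adjusted p = 1.91e-09), the lowest p of all 19498 genes, of which 6.76% were called. None of the other 7 members passed it for nitrate (adjusted p from 0.442 to 1). For light none of the 8 passed beside 7.73% of genes (2 at an unadjusted p under 0.05), with ARR8 nearest at an adjusted p of 0.0505.

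Levels of several members also varied together between plants of the same group. How often other pairs of genes do so was not computed. With each group centred on its mean, the log2 levels of ARR6 and ARR7 correlated at r = 0.92 over the 96 libraries (Spearman's rho = 0.91), with a permutation p of 1e-05 for both, the smallest that 100000 permutations within groups can give, and an adjusted p of 2e-05 over 28 pairs. Without the 2 libraries farthest from the median of ARR6, r was 0.90. With the sets centred, meaning each group centred within each code set, r was 0.90, and in sets 1 to 4 it was 0.93, 0.88, 0.77 and 0.92. A group has 2 plants in a set, so after this centring their values mirror each other. Each r with the sets centred or within a set thus rests on fewer independent values than libraries. ARR7 and ARR15, the pair known from the shoot meristem, had r = 0.87 (rho = 0.85), which was 0.78 with the sets centred. ARR6 and ARR15 had r = 0.81 (rho = 0.79) and 0.73. ARR5 and ARR6, close relatives, had r = 0.57 (rho = 0.46) and 0.55 with the sets centred. ARR8 and ARR9, likewise relatives, had r = 0.15 (adjusted p = 0.272) and 0.44.

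**Figure D4:**
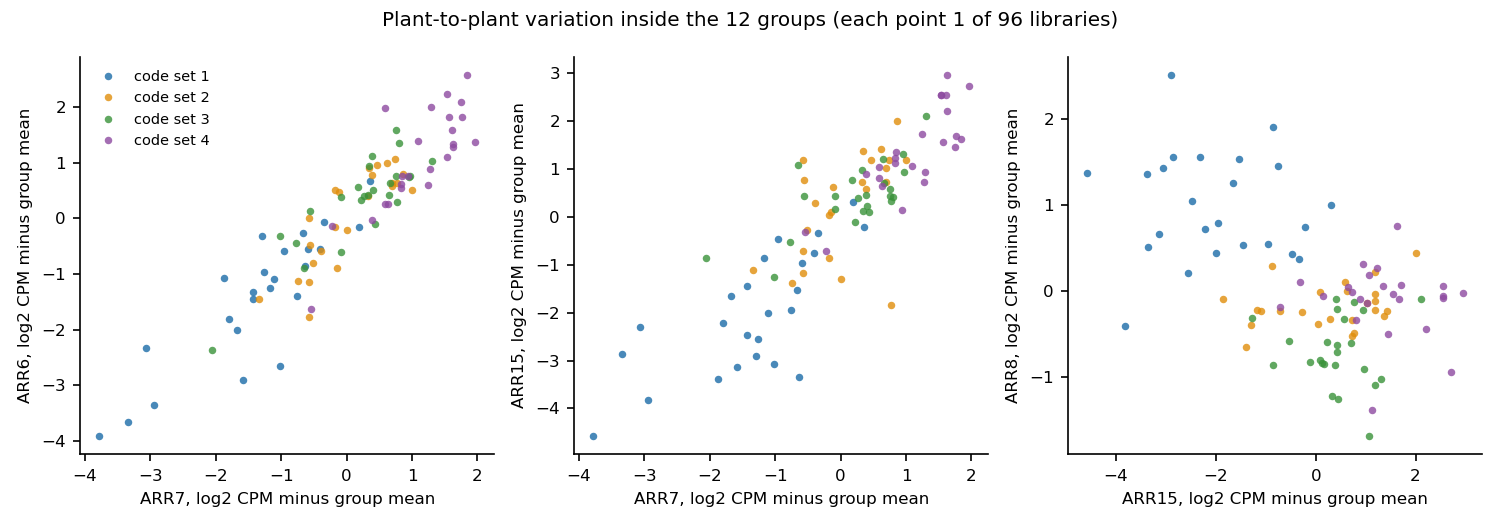
Log2 CPM minus the mean of the plant's group, for ARR6 against ARR7, ARR15 against ARR7 and ARR8 against ARR15, with 1 point per library coloured by code set. The first pair forms 1 narrow band through all 4 sets (r = 0.92), and in the last panel most of set 1 lies above the other sets.

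Of the 28 pairs, 19 correlated positively and 6 negatively at an adjusted permutation p under 0.05, and all 6 negative pairs held ARR8. The permutations ran within groups but across the code sets, so these p-values also take in differences between the sets. No p-value was computed within the sets. With the sets centred, all 21 pairs without ARR8 were positive, and 1 of the 7 with ARR8 was negative. Within single sets, the pairs without ARR8 were all positive in set 1 but not in the others. ARR4 against ARR9 had r = 0.63, -0.39, 0.31 and -0.10 in sets 1 to 4. ARR5 against ARR16 had 0.80, -0.05, 0.11 and -0.36, and ARR9 against ARR16 had 0.70, 0.10, -0.35 and -0.42. ARR8 against ARR15 was -0.52 over all libraries and 0.06 with the sets centred, and it lay between -0.03 and 0.15 within single sets. ARR9 against ARR16, which moved oppositely with both treatments, had r = 0.13 between plants of a group (adjusted p = 0.247). The 2 values of a pair come from the same library and share its scaling factor.

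Over the 12 group means, given as a description, ARR16 ran against ARR9 (r = -0.86), ARR5 (-0.85), ARR6 (-0.82), ARR8 (-0.69) and ARR15 (-0.60). ARR6 ran with ARR9 (0.90), ARR15 (0.88) and ARR5 (0.87), and ARR6 with ARR7 had 0.57. The pair most alike from plant to plant was therefore not the pair most alike between conditions.

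Among the other tested genes that averaged 5 CPM or more (14444 for ARR15 and 14443 for each other member), those with the highest r to a member over the 12 group means were named. ARR16 was most like AT5G62200 (0.988), AT3G27570 (0.982) and CRF11 (0.982), the last a cytokinin response factor of the AP2/ERF class. ARR9 was most like AT3G01980 (0.996), CYP96A12 (0.991), a cytochrome P450, and AT4G01040 (0.989). ARR5 was most like EIF4A1 (0.970), a translation initiation helicase, UAP56a (0.959), an RNA helicase, and AT3G62120 (0.955). The nearest for ARR6 were ATCG00030, PAF2, a proteasome subunit, and AMP1 (0.950, 0.950 and 0.948). The nearest for ARR15 was AT5G15802 (0.966), for ARR8 AT4G32610 (0.953), for ARR4 GlcNAc1pUT2 (0.915) and for ARR7 AT3G44740 (0.847). Over the 96 libraries the same r was 0.73 for ARR16 with CRF11, 0.83 for ARR9 with AT3G01980 and 0.00 for ARR6 with PAF2.

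The rest of the cytokinin pathway is given by 7 lists. Their counts stand beside 62.5% of all tested genes called for light, 33.8% higher and 28.7% lower. For 20 against 2 mM the share was 63.3%, with 28.7% higher and 34.6% lower. No list was tested as a set. Of 9 tested genes of synthesis and activation, 4 were higher and 1 lower in high light, and 2 were higher and 4 lower at 20 mM. LOG5, which releases active cytokinin, rose in high light by 3.19 ± 0.42 on the log2 scale (adjusted p = 4.20e-10) and fell at 20 mM with -3.57 ± 0.47 (adjusted p = 1.41e-09). IPT7, an isopentenyltransferase of the first step, rose in high light by 1.96 ± 0.43 (adjusted p = 6.18e-05) and fell at 20 mM with -3.06 ± 0.52 (adjusted p = 6.40e-07). Both genes were low. LOG5 averaged 1.95 CPM in high and 0.150 CPM in low light, and 0.0863 CPM at 20 mM against 1.55 CPM at 2 mM. IPT7 averaged 1.90 and 0.509 CPM for light, and 0.266 CPM at 20 mM against 2.05 CPM at 2 mM. LOG5 had counts in 61 of 96 libraries and IPT7 in 77. The lower LOG5 means lie under the limit of a single library without a count (0.166 to 0.317 CPM). IPT3, the isopentenyltransferase known to respond to nitrate, rose at 20 mM by 0.72 ± 0.27 (adjusted p = 0.0193) and gave -0.11 ± 0.24 for light (adjusted p = 0.708), and it was named for that role after its values were seen. IPT9, from the same list and also named after its values were seen, gave -0.37 ± 0.13 in high light (adjusted p = 0.00912) and 0.88 ± 0.15 at 20 mM (adjusted p = 3.63e-07). LOG7 and LOG8, of the same list, had higher means of 5.09 and 24.3 CPM. In high light they gave 0.63 ± 0.19 and 0.43 ± 0.08 (adjusted p = 0.00292 and 8.18e-06). At 20 mM they gave -2.06 ± 0.22 and -0.59 ± 0.10 (adjusted p = 5.18e-12 and 2.22e-07). LOG5, IPT7, LOG7 and LOG8 thus had the signs of ARR16 for both factors, IPT9 had those of ARR5 and ARR9 for both, and IPT3 had theirs for nitrate.

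Of 11 genes of breakdown and conjugation, 6 were higher and 2 lower in high light, and 3 were higher and 3 lower at 20 mM. UGT76C2, an N-glucosyltransferase of cytokinins, fell in high light with -1.32 ± 0.18 and rose at 20 mM by 1.11 ± 0.21 (adjusted p = 2.00e-09 and 4.79e-06). UGT73C1, which can attach glucose to the side chain, rose by 3.37 ± 0.53 and fell with -3.71 ± 0.61 (adjusted p = 8.82e-08 and 3.05e-07). UGT73C1 was low, with a mean of 2.45 CPM in high and 0.264 CPM in low light. Its mean was 0.153 CPM at 20 mM against 2.32 CPM at 2 mM, and 62 of 96 libraries had counts. Of 5 transport genes, 2 were higher and 1 lower in high light, and none was higher and 3 were lower at 20 mM. ABCG14, which loads root-made cytokinin for the shoot, rose by 1.01 ± 0.17 in high light and fell with -0.81 ± 0.20 at 20 mM (adjusted p = 4.06e-07 and 2.27e-04).

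Of 8 receptor and shuttle genes, 2 were higher and 2 lower in high light, and 4 were higher and 4 lower at 20 mM. AHP4, a shuttle thought to act weakly or negatively, rose by 1.82 ± 0.26 in high light and fell with -2.33 ± 0.31 at 20 mM (adjusted p = 9.40e-09 and 1.47e-09). AHP2, a positive shuttle, fell with -0.48 ± 0.05 and rose by 0.32 ± 0.05 (adjusted p = 2.11e-14 and 5.42e-07). Of 6 tested type-B and type-C genes, 2 were higher and 3 lower in high light, and 2 were higher and 2 lower at 20 mM. ARR10 and ARR2, activators of the type-B class, rose in high light by 0.57 ± 0.09 and 0.55 ± 0.13 (adjusted p = 1.78e-07 and 2.01e-04) and fell at 20 mM with -0.85 ± 0.11 and -0.98 ± 0.15 (adjusted p = 3.52e-10 and 7.54e-08). ARR12, of the same class, went the other way in both, with -0.33 ± 0.06 and 0.32 ± 0.07 (adjusted p = 6.32e-06 and 1.20e-04).

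**Figure D5:**
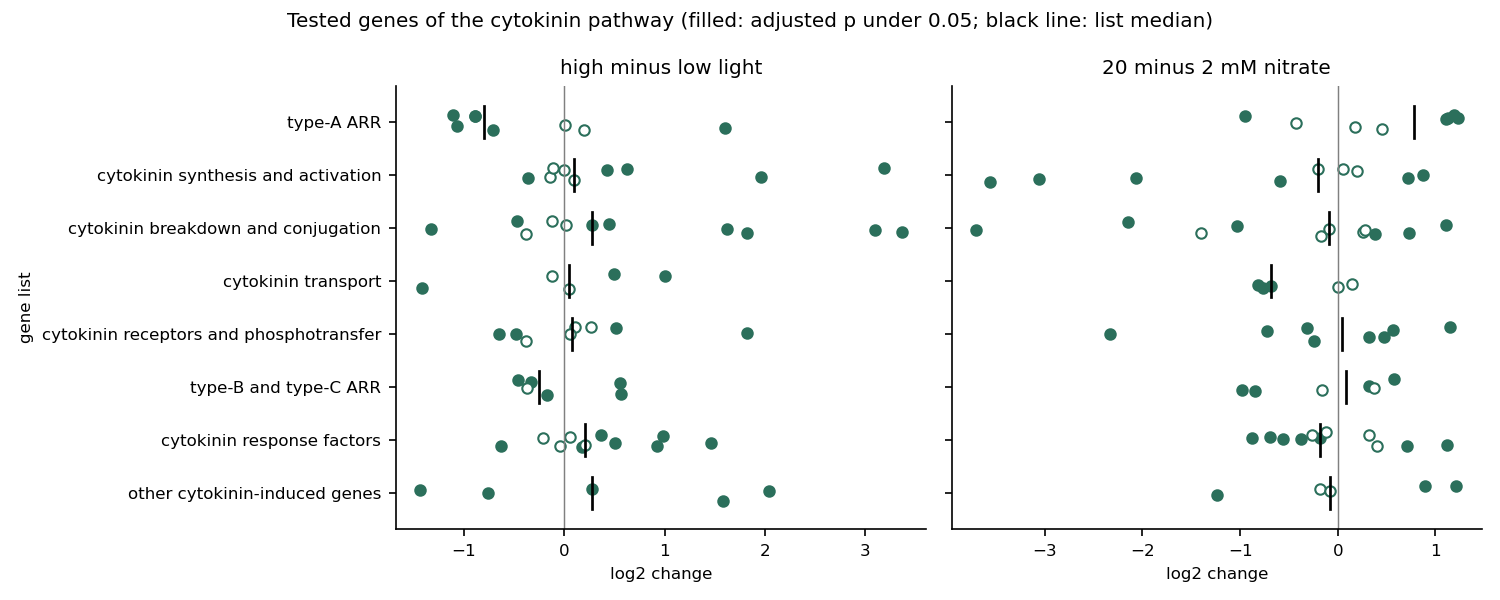
Log2 change of each tested gene of the type-A list and of 7 other cytokinin lists, for high minus low light (left) and 20 minus 2 mM nitrate (right), filled where the adjusted p is under 0.05, with the median of each list as a line. The type-A median is -0.80 for light and 0.78 for nitrate, and every list, the type-A list included, has genes on both sides of 0.

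Of 11 cytokinin response factors, 6 were higher and 1 lower in high light, and 2 were higher and 5 lower at 20 mM. CRF11 rose by 1.46 ± 0.13 in high light and fell with -0.87 ± 0.15 at 20 mM (adjusted p = 1.03e-16 and 4.17e-07), beside the 1.60 and -0.95 of ARR16. CRF1 went the other way, with 1.12 ± 0.29 at 20 mM (adjusted p = 5.39e-04). Of 5 other genes known to be induced by cytokinin, 3 were higher and 2 lower in high light, and 2 were higher and 1 lower at 20 mM. EXPA1, an expansin of the cell wall, fell with -1.44 ± 0.20 and rose by 1.21 ± 0.23 (adjusted p = 3.53e-09 and 5.54e-06), the direction of ARR5. GATA22, a factor of chloroplast development, rose by 2.04 ± 0.34 and fell with -1.24 ± 0.39 (adjusted p = 3.09e-07 and 0.00407), the direction of ARR16. The median log2 changes of the 7 lists lay between -0.25 and 0.28 for light and between -0.69 and 0.08 for nitrate, against -0.80 and 0.78 for the type-A members.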

How the data were processed

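Polyadenylated RNA of leaf discs from single plants was sequenced, 1 library per plant. The authors deposited whole-number read counts for each gene, without normalization. The library kit was a stranded mRNA kit of Kapa, per the labels' protocols. STAR 2.5.3a, the build TAIR10 and featureCounts are named in the submitters' processing notes. No source used here gives the featureCounts version, its strand setting or the annotation, so reads of overlapping genes and of similar copies can be misplaced.

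Groups came from the sample titles and columns from the library codes of the labels. The counts of all 96 libraries were fitted with edgeR 4.0.16 (R 4.3.3; filterByExpr by group, TMM, robust quasi-likelihood) with 1 mean for each of 12 groups, which left 84 residual degrees of freedom. Each light contrast averages the 4 doses, and each nitrate contrast the 3 light levels. Adjusted p-values are Benjamini-Hochberg over 19498 genes and come from edgeR unless another tool is named, and a call is an adjusted p under 0.05. The SE is the log2 change divided by the square root of F. Depth was 9461056 to 18125373 counts, and limits for a count of 0 use 3 counts and cover counting error only. No library was a copy of another of its group: chi-square divided by its degrees of freedom was at least 6.46 in the 336 pairs. The method was tested on simulated counts that held no difference between code sets and changes in few genes. That test thus does not cover the code sets or the broad changes of these data.

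The members, lists and tests were chosen with earlier results of these data known. Named genes are all 10 members, up to 3 of each pathway list with the smallest p per main contrast, and the 3 genes most like each member. Plant-to-plant correlations used log2 CPM (prior count 2) centred by group, permuted within groups and across code sets. Alternatives were DESeq2 1.42.0, limma-voom 3.58.1, other scaling, no filter, blocks, and libraries, replicates or code sets left out. Scaling by library totals only, leaving out single libraries and the test between code sets were chosen after seeing the data. Of the 32833 loci 32548 matched RefSeq TAIR10.1, which gave symbols, coordinates and promoter sequence. TAIR10.1 is taken to have the nuclear chromosomes of TAIR10. The files themselves hold no coordinates.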

Additional observations from a re-analysis of the deposited data

Results flagged for a closer look

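In 9 of the 96 sets of 8 plants (8 members in 12 groups), 1 plant stood far from the other 7 by Dixon's criterion at 95%. Chance alone gives about 1 such set in 20 where values follow a normal distribution. The CPM were not transformed, and the 8 plants of a group come from all 4 code sets, so this rate is a rough guide only. These 9 values came from 8 plants, of which 6 belong to code set 4, where ARR6, ARR7 and ARR15 had their highest mean levels.

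ARR6 reached 27.5 CPM in mid light at 5 mM in replicate 7, where the next plant had 12.98 CPM, and 32.1 CPM in high light at 5 mM in replicate 8, where the next had 15.6 CPM. ARR7 reached 67.6 CPM in low light at 2 mM in replicate 7 (next 31.3 CPM). It reached 54.9 CPM in high light at 2 mM in replicate 8 (next 24.5 CPM), and 82.6 CPM in high light at 10 mM in replicate 7 (next 38.9 CPM). ARR15 reached 9.79 CPM in mid light at 2 mM (next 3.75 CPM) and 11.6 CPM in mid light at 5 mM (next 4.43 CPM), both in replicate 7, and 24.5 CPM in low light at 20 mM in replicate 5 (next 10.8 CPM).

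ARR9 was low rather than high, with 12.9 CPM in low light at 5 mM in replicate 1, where the next plant had 43.1 CPM.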

How the results depend on the processing

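The light calls of ARR5, ARR8, ARR9 and ARR16 and the nitrate calls of ARR5, ARR9 and ARR16 held in all 19 alternatives that used the whole design. The number of called members differed by more than 1.5 times, or from 0, as follows. For high against low light (6) it was 2 within code set 1. For mid against low light (2) it was 4 with the replicate block, 4 with the code set block, 0 without code set 2 and 1 without code set 3, and for high against mid light (3) 5 with either block. For 20 against 2 mM (5) it was 1, 3 and 2 within code sets 1, 2 and 4. The call in set 1 was ARR8 (-1.34), which is not among the 5. Those in set 2 were ARR5, ARR9 and ARR15, and those in set 4 were ARR9 and ARR8 (0.59). For 5 against 2 mM (0) it was 1 with the replicate block, the code set block, limma-voom, DESeq2 and without code set 1. For 10 against 5 mM (0) it was 1 with library totals only, with either block and without code set 1, and for 20 against 10 mM (0) 1 with either block and without code set 4. The nitrate change in high minus that in low light had 1 (ARR8, adjusted p = 0.0385) with the code set block, and the interaction F test 1 without code set 1. High against low light at 10 mM (3) had 1 without code set 2. For 20 against 2 mM, low light (0) had 1 with library totals, with either block and with DESeq2. Mid light (3) had 6 with either block, 1 without code set 3 and 5 without code set 4. High light (3) had 5 without code set 1 and 1 without code set 4. Without 1 replicate number, counts ran from 4 to 6 (high against low light), 1 to 2 (mid against low), 2 to 3 (high against mid), 4 to 5 (20 against 2 mM), 0 to 1 (5 against 2 mM, and the interaction), 3 to 4, 4 to 4 and 2 to 3 (high against low light at 2, 5 and 10 mM), 1 to 3 (20 against 2 mM in mid light) and 2 to 4 (in high light), and were 0 for the other comparisons. The cause of these changes was not tested. Sets and replicates left out also leave fewer libraries. These counts of members are given without the share of all genes called under each alternative.

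The light call of ARR6 was lost in 9 whole-design alternatives (among them -0.60 without replicate 4 or 6, and -0.49 without code set 2) and that of ARR15 in 11 (-0.38 in limma-voom, -0.57 without replicate 7). The nitrate call of ARR6 was lost without code set 3 (0.83) and that of ARR15 in 4. Among changes called over all libraries or under the alternative, the signs that turned were those of ARR15 for light within code set 1 (1.17) and of ARR8 for nitrate within sets 3 (0.87) and 4 (0.59). ARR7 was called for nitrate with the replicate block (0.51, adjusted p = 0.0308). Leaving out 1 library ended the ARR6 light call for high-light replicates 2 (2 mM), 1, 2 and 6 (5 mM), 1 to 4 (10 mM) and 2 to 4 (20 mM), and low-light replicates 6 and 7 (2 mM), 3 (5 mM), 4, 7 and 8 (10 mM) and 5 and 7 (20 mM), with an adjusted p of 0.0506 to 0.0590. It ended that of ARR15 for high-light replicates 1 and 2 (5 mM), 1 to 3 (10 mM) and 2 and 4 (20 mM), and low-light replicates 4 and 7 (2 mM), 3 and 7 (5 mM), 7 and 8 (10 mM) and 5 (20 mM), with 0.0502 to 0.0877.

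Replicate numbers did not pair the plants. In 528 pairs of libraries with the same number in different groups, the deviations correlated with r from -0.50 to 0.81 (median 0.22), against medians of -0.02 for different numbers and 0.25 for different numbers of the same code set, and 27 of 96 libraries were closest to their own number. Depth limits ARR3 and ARR17, whose levels lay below what single libraries resolve.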

Other observations

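Single plants were extreme for several members at once. The low-light plant at 5 mM named replicate 1 had the lowest level of its group for 7 of the 8 tested members. It had 1.24 CPM of ARR6 (17.4 to 41.8 CPM in the other 7 plants), 1.38 CPM of ARR7 (13.1 to 49.9), 0.364 CPM of ARR16 (2.80 to 10.0) and 46.8 CPM of ARR4 (106 to 221). ARR15 had 0 counts there. ARR8 was the exception at 207 CPM, near the top of the range of the other 7 plants (39.3 to 233). The high-light plant at 20 mM named replicate 2 was the lowest of its 8 for all 8 members. The mid-light plant at 5 mM named replicate 7 was the highest of its group for 7 of the 8 members. The first pair of these plants belongs to code set 1, and the last to code set 4.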
